A study of Mus musculus with 43 samples.

Results

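Sphingosine 1-phosphate (S1P) is a lipid messenger that cells make from sphingosine and export, and that acts on a family of G protein coupled receptors. The receptor genes S1pr1 to S1pr5, the kinases Sphk1 and Sphk2 that make S1P, the lyase Sgpl1 that breaks it down for good, and the exporters Spns2 and Mfsd2b were chosen by name, 10 genes of the 55416 counted in each library. Their counts were read in 43 libraries of 4 glial cell types. In the brain S1P signalling is studied in myelination, in astrocyte reactivity and in the traffic of lymphocytes, which leave lymph nodes along an S1P gradient that they sense with S1PR1. S1PR5 is known from oligodendrocytes and natural killer cells, and S1PR4 from lymphoid and other blood-forming cells. The set was picked with 1 value in view, the S1pr4 level of a Rag2-/- library of oligodendrocyte precursor cells (OPCs), so that value and the genotype comparison of S1pr4 in OPCs are described here without a test.

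The libraries came from the cerebral cortex of 12 mice aged 3 months, in 6 littermate pairs of a Rag2-/- mouse, which lacks mature T and B lymphocytes in every tissue, and an immunocompetent control. The Rag2 line, bought from a vendor, had been crossed with C57BL/6J. Controls were Rag2+/- in pairs 1, 2, 3 and 5 and Rag2+/+ in pairs 4 and 6, the mice of pairs 2 and 5 were female and those of pairs 1, 3 and 4 male, and pair 6 joined a male control with a female Rag2-/- mouse. Microglia were panned on antibody to CD45, OPCs to PDGFRA, oligodendrocytes on GalC hybridoma antibody and astrocytes to HepaCAM, in sequence from a single suspension of each cortex. Oligodendrocytes gave 4 control and 4 Rag2-/- libraries (pairs 1, 3, 5 and 6), OPCs 6 and 5 (no Rag2-/- library of pair 5), and astrocytes and microglia 6 and 6 each.

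Depth ranged from 6499417 to 23118497 counts on genes per library (median 10447042), and the deepest library was the Rag2-/- OPC library of pair 6. Mitochondrially encoded genes took 45.8% to 60.1% of the counts in oligodendrocytes and 6.75% to 11.7% in microglia. All libraries of 1 cell type were sequenced on the same lane, so lane and cell type cannot be told apart. The labelled cell types were checked against 8 markers each. All 8 oligodendrocyte, 8 OPC, 8 astrocyte and 8 microglia markers had their highest mean level in their own cell type, and the lowest marker sum there lay above the highest in any other library. The separation was not complete, since the median oligodendrocyte marker reached 21.3% of its own level in astrocytes and the median astrocyte marker 11.3% of its own level in OPCs.

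Levels are given as normalized CPM, counts as a share of the library (CPM) with TMM scaling factors that were computed over all 43 libraries. Because these are bulk samples, fewer cells that express a gene and less RNA of it per cell cannot be told apart. Cell types were compared with edgeR's quasi-likelihood test in a joint fit of all libraries, and a gene was called at a Benjamini-Hochberg adjusted p under 0.05 over the 21368 genes past the filter on low counts. All 10 genes passed that filter. The fits of single cell types kept 6 of the 10 for oligodendrocytes, 9 for OPCs (S1pr4 fell out), 8 for astrocytes and 7 for microglia.

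To show the regions from which 3 contrasting members are transcribed, the 250 bases before the RefSeq transcription start are printed for S1pr4, whose reads in OPCs came almost wholly from 1 library, S1pr5, which was highest in oligodendrocytes, and Sgpl1, which was highest in microglia. They are written 5′ to 3′ on the strand of the gene, from RefSeq's table on build GRCm38.p6, with every CG dinucleotide in capitals. The windows are chr10:81500138-81500387 (minus strand) for S1pr4, chr9:21248444-21248693 (minus strand) for S1pr5 and chr10:61147685-61147934 (minus strand) for Sgpl1.
S1pr4: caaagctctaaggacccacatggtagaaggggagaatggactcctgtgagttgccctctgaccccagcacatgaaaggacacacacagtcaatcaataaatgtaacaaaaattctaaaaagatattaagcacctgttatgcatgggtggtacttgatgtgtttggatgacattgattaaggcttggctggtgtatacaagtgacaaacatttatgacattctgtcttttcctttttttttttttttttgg
S1pr5: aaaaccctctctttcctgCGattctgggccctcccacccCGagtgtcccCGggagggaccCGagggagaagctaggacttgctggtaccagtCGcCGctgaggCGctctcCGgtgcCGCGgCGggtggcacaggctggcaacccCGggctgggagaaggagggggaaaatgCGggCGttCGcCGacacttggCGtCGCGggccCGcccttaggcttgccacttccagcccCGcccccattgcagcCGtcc
Sgpl1: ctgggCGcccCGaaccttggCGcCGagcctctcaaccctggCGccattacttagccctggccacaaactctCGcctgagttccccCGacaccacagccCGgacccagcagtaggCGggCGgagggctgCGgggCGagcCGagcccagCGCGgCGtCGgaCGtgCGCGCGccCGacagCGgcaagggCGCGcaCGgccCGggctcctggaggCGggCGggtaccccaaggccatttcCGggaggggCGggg

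The S1pr4 window held 0 CG dinucleotides, a number shared by 7.9% of the 32851 promoter windows of that table, whose median was 6. S1pr5 held 22, a number that 14.8% of the windows reach, and Sgpl1 held 31, which 5.2% reach. The table matched 9 of the 10 genes, with 14 starts in all, and held no entry for S1pr1. A CG count describes these letters and was not related to the levels by any test. The letters GAGGAA, a core to which PU.1 and other ETS factors can bind, were looked for on both strands and stood in 3 of the 14 member windows (S1pr3, Spns2 and Mfsd2b), against 23.3% of all windows.

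S1pr1, the receptor that couples to Gi and is needed for lymphocytes to leave lymph nodes, was an astrocyte transcript in these data. It lies on GRCm39 chromosome 3 at 115504071-115508721 on the minus strand. Its normalized CPM ran from 758.6 through a median of 960.0 to 1150 in the 6 control astrocyte libraries, and from 727.1 through 871.7 to 1119 in the 6 Rag2-/- ones. In OPCs the controls ran from 42.3 through 71.8 to 120.5, and the 5 Rag2-/- libraries held 210.0 (pair 1), 156.8 (pair 2), 58.8 (pair 3), 127.9 (pair 4) and 110.0 (pair 6). Astrocyte libraries all lay above every library of another cell type, and the genotypes overlapped in both cell types. Oligodendrocytes had 26.4, 26.7, 32.8 and 89.6 in the controls of pairs 1, 3, 5 and 6 and 22.7, 22.1, 45.1 and 36.0 in their Rag2-/- littermates. Microglia lay between 20.7 and 44.2 over all 12 libraries.

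The mean of the 12 astrocyte libraries, 927.2 ± 158.2 normalized CPM (SD), was 8.93 times that of the 11 OPC libraries, 103.8 ± 49.7. OPCs were below astrocytes by a log2 fold change of -3.15 (SE 0.21, edgeR adjusted p = 2.89e-16), and oligodendrocytes below OPCs by -1.48 (SE 0.22, edgeR adjusted p = 6.79e-07), a call that was lost in the control libraries alone (log2 fold change -0.81, edgeR adjusted p = 0.0583). Oligodendrocytes and microglia, the lowest neighbours in the order, did not differ at the threshold (log2 fold change 0.21, SE 0.21, edgeR adjusted p = 0.37).

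S1pr1 stood at 11.2% of its astrocyte level in OPCs, at 4.06% in oligodendrocytes and at 3.48% in microglia, where the median of the 8 astrocyte markers (Aqp4, Gfap, Aldh1l1, Slc1a2, Slc1a3, Gja1, Fgfr3 and Aldoc) stood at 11.3%, 5.16% and 0.848% of its own. In microglia the S1pr1 share thus lay above that of the median marker. The part of astrocyte RNA in these levels was not tested. Of all genes, the one whose log2 level followed S1pr1 most closely over the 43 libraries was Slc1a3, a glutamate transporter and one of those 8 markers (Pearson r = 0.984), and the next was Glud1, glutamate dehydrogenase (r = 0.972). Both values describe libraries in clusters of cell type that share a lane.

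S1pr5, a Gi and G12/13 coupled receptor of mature oligodendrocytes, separated oligodendrocytes from the rest (chromosome 9, 21154208-21159746, minus strand, GRCm39). Normalized CPM was 102.3, 95.5, 60.9 and 54.8 in the control oligodendrocyte libraries of pairs 1, 3, 5 and 6 and 58.0, 117.7, 62.3 and 91.8 in the Rag2-/- libraries. Astrocytes ran from 8.47 through a median of 23.3 to 45.2 over 12 libraries, OPCs from 0.0826 through 2.71 to 8.67 over 11, and microglia from 0 through 0.422 to 2.56 over 12. Every oligodendrocyte library lay above every other library. Of the 21368 genes tested, 1.79% had that pattern for oligodendrocytes, 3.08% for astrocytes (S1pr1 among them), 9.99% for microglia (Sgpl1 among them) and 1.46% for OPCs (no member).

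Each step down the order of S1pr5 was called. The 8 oligodendrocyte libraries had a mean of 80.4 ± 24.2 (SD) and the 12 astrocyte libraries 23.3 ± 12.7, a log2 fold change of 1.80 (SE 0.44, edgeR adjusted p = 0.000769) that missed the threshold in the control libraries alone (1.60, edgeR adjusted p = 0.0531). OPCs were lower than astrocytes by -2.50 (SE 0.45, edgeR adjusted p = 1.52e-05) and higher than microglia by 2.64 (SE 0.50, edgeR adjusted p = 1.38e-05). The genes with the most similar levels over 43 libraries were the myelin genes Mag and Opalin, both with r = 0.979 and both among the 8 oligodendrocyte markers. S1pr5 stood at 29.0% of its oligodendrocyte level in astrocytes and at 5.09% in OPCs, and the median oligodendrocyte marker stood at 21.3% and 3.45%. The summed level of the 8 oligodendrocyte markers ran from 3725 to 6491 in astrocyte libraries, from 350.1 to 1389 in OPC libraries and from 27312 to 36089 in oligodendrocytes. The part of oligodendrocyte RNA in the S1pr5 of astrocyte libraries was not tested.

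S1pr2, which couples mainly to G12/13, was spread over OPCs and microglia (chromosome 9, 20873657-20914139, minus strand). It ran from 9.26 through 14.6 to 21.6 normalized CPM in OPCs, from 8.60 through 11.9 to 16.3 in microglia and from 1.5 through 4.26 to 8.59 in astrocytes. OPCs and microglia overlapped and did not differ at the threshold (log2 fold change 0.33, SE 0.40, edgeR adjusted p = 0.46), and astrocytes were lower than microglia (-1.29, SE 0.40, edgeR adjusted p = 0.0044). In oligodendrocytes the control libraries of pairs 1, 3, 5 and 6 held 3.49, 1.03, 12.1 and 0 and the Rag2-/- libraries 0.536, 5.62, 0 and 0. The oligodendrocyte values came from few reads and did not differ from those of astrocytes at the threshold (-0.95, SE 0.48, edgeR adjusted p = 0.0947), although 7 of 16 alternatives called the difference in the same direction. Midn and Tm9sf4 followed S1pr2 most closely, with r = 0.856 and 0.84.

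S1pr3, which couples to Gi, Gq and G12/13, was highest in OPCs and close to the floor elsewhere (chromosome 13, 51561702-51576833, plus strand). OPC libraries ran from 3.06 through 9.05 to 20.9 normalized CPM, on 37 to 292 counts. Oligodendrocytes held 0, 0, 0 and 6.74 in the controls of pairs 1, 3, 5 and 6 and 0.322, 0, 11.9 and 1.82 in the Rag2-/- libraries, and microglia held 0 to 0.80 on at most 9 counts. In astrocytes 11 of the libraries lay between 0.222 and 1.58, and the Rag2-/- library of pair 1 lay at 10.3. Oligodendrocytes were below OPCs by -1.99 (SE 0.77, edgeR adjusted p = 0.0355), a call that 7 of 16 alternatives lost. Oligodendrocytes and astrocytes did not differ at the threshold (0.51, SE 0.75, edgeR adjusted p = 0.60). Without pair 6, whose control held most of the oligodendrocyte counts beside the Rag2-/- library of pair 5, that difference turned to -3.33 (edgeR adjusted p = 0.0432). Astrocytes were above microglia by 2.30 (SE 0.74, edgeR adjusted p = 0.0055), and by 1.31 without pair 1 (edgeR adjusted p = 0.0927). The most similar genes were Krt1, a keratin (r = 0.839), and Gm33680 (r = 0.809).

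S1pr4 was read in every microglia library and in few others (chromosome 10, 81333581-81335966, minus strand, with no annotated exon of another gene over it). Microglia held 18 to 79 counts, 1.42 to 4.80 normalized CPM in the 6 controls and 1.57 to 7.19 in the 6 Rag2-/- libraries. Astrocytes were at 0 counts in 11 of 12 libraries and at 7 in the Rag2-/- library of pair 2. Oligodendrocytes held 41 counts in all, 39 of them in the Rag2-/- library of pair 3. Every astrocyte library thus lay below every microglia library. The joint fit called the difference, but only microglia brought S1pr4 past the filter, so nothing more is read from that call. No fold is given because all but 1 astrocyte library is at 0. The genes whose levels were most like S1pr4 over 43 libraries were Mndal, an interferon-inducible gene (r = 0.87), and Gimap9, a GTPase of immune cells (r = 0.858).

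In OPCs S1pr4 held 366 counts in 11 libraries, and 349 of them came from the Rag2-/- library of pair 6. That is 95.4% of the counts (95% Wilson interval 92.7% to 97.1%, which covers counting error only) and 91.6% after scaling for depth. Its 12.9 normalized CPM was above every microglia library, whose highest value was 7.19. The other 4 Rag2-/- OPC libraries held 0.333 (pair 1), 0.0661 (pair 2), 0.177 (pair 3) and 0.428 (pair 4), and the 6 controls held 0 to 0.107, on at most 1 count each. The control of the same pair held 0 counts, and the astrocyte library of the same Rag2-/- mouse also held 0, its oligodendrocyte library 0 and its microglia library 79.

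**Figure D1:**
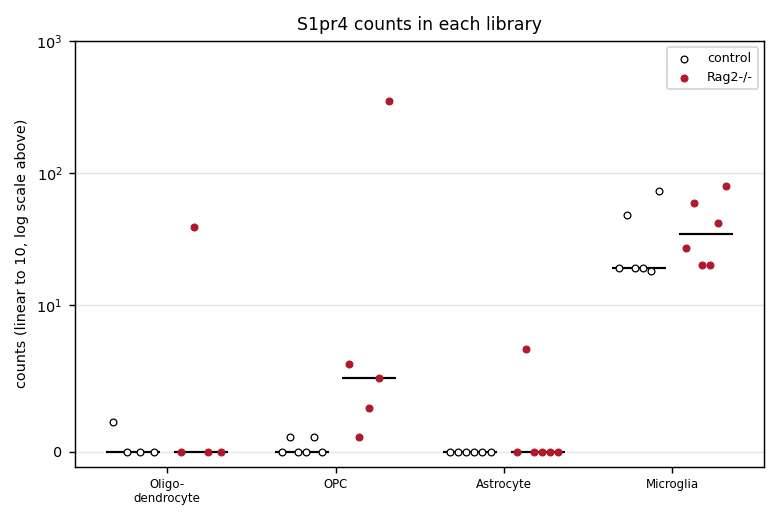
S1pr4 counts (y axis, linear to 10 and logarithmic above) in each of the 43 libraries by cell type, open circles for control and filled circles for Rag2-/- mice, with a bar at the median of each group. One OPC library stands at 349 counts, the 12 microglia libraries lie between 18 and 79, and most other libraries are at 0.

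The OPC library with 349 counts did not stand apart in its markers. Its 8 microglia markers summed to 319.5 normalized CPM, within the 147.1 to 800.3 of the other 10 OPC libraries. Its T cell markers summed to 1.78 (others 0.444 to 7.92, with Cd3e, Cd3d, Cd3g and Cd2 at 0), its B cell markers to 0.888 (others 0.0555 to 2.45, with 5 of 7 genes at 0), its NK cell markers to 0 (7 of 7 genes at 0) and its neutrophil markers to 0.148 (others 0 to 0.991, with 7 of 8 genes at 0). Erythroid markers, at 18.8, ranked second of 11 behind 37.2 and above a median of 6.54. With 23118497 counts on genes it was also the deepest library of the series. Among 17765 genes with at least 100 counts in OPCs, 6 had over 90% of their scaled level in it, of which 2 were protein coding, and S1pr4 had the most counts. The next were Gm45297 with 207 counts, the pseudogene Gm16232 with 168, Lrat, the enzyme that stores vitamin A as retinyl esters, with 136, and the lncRNA Gm5907 with 116. Each of the other OPC libraries held 0 or 1 such gene. In the other cell types a library held 0 to 4 in astrocytes, 0 or 1 in microglia and 1 to 18 in oligodendrocytes.

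**Figure D2:**
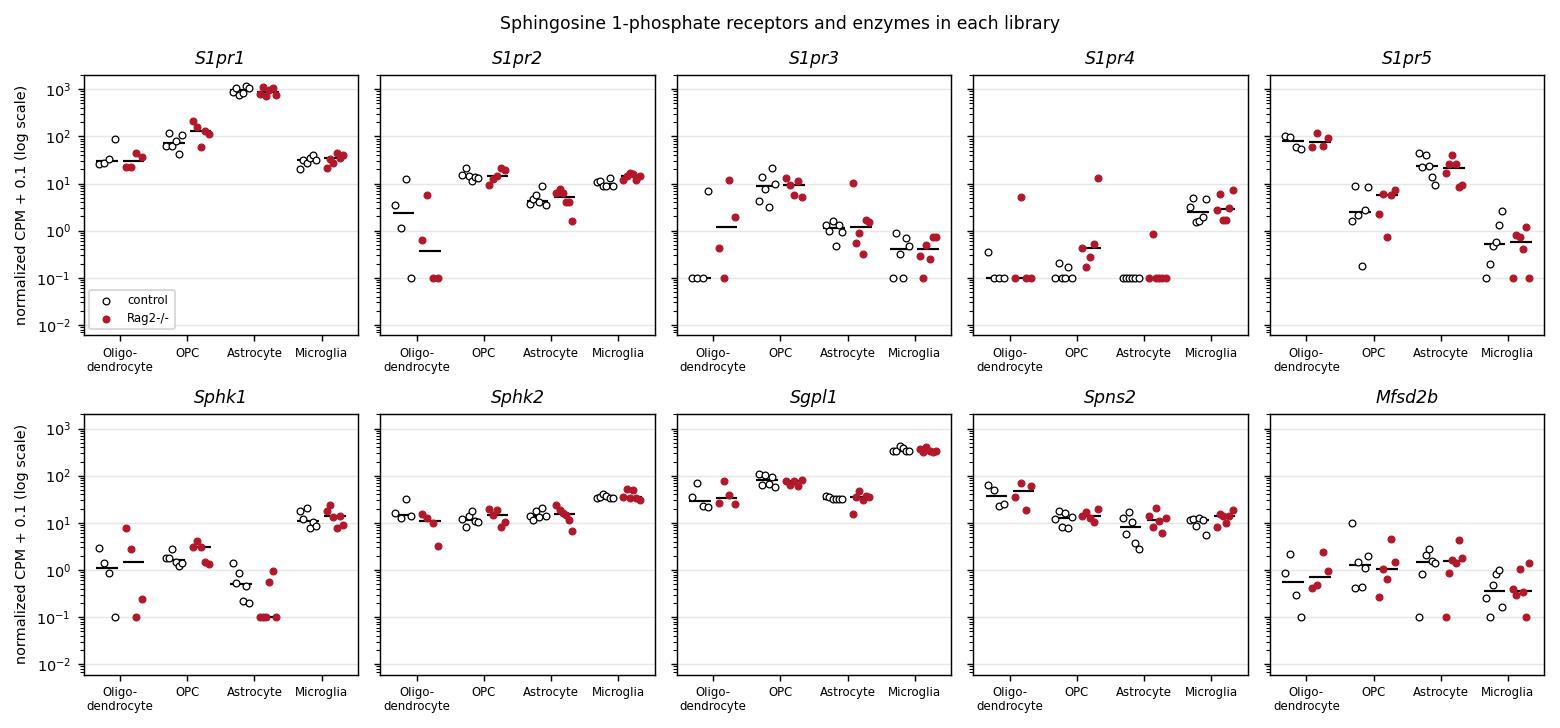
Normalized CPM plus 0.1 (y axis, log scale) of the 10 genes in each library by cell type, open circles for control and filled circles for Rag2-/- mice, with a bar at the group median. S1pr1 is highest in astrocytes, S1pr5 and Spns2 in oligodendrocytes, and Sgpl1, Sphk1 and Sphk2 in microglia, and the control and Rag2-/- libraries overlap in every cell type of every panel.

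Per kilobase of merged exons, on which levels of different genes can be set side by side, astrocytes held the most receptor mRNA. The 5 receptors summed to 232.0 ± 36.7 normalized CPM per kilobase in astrocytes (SD over 12 libraries), 34 ± 6.53 in oligodendrocytes, 30.3 ± 12.8 in OPCs and 10.6 ± 2.22 in microglia. The sums of oligodendrocytes (22.8 to 42.8) and OPCs (16.7 to 55.2) overlapped, and the order of their means depends on the scaling. S1pr1 made up 96.5% ± 1.97 of the astrocyte sum, 81.7% ± 8.82 of that in OPCs, 73.5% ± 6.27 in microglia and 26.9% ± 13.4 in oligodendrocytes, where S1pr5 made up 70.0% ± 14.3. In microglia S1pr2 (11.6% ± 2.91) and S1pr4 (12.7% ± 6.10) took shares of similar size, both larger on average than in the other cell types. With the length of the canonical transcript, an alternative chosen after seeing the data, these shares were 13.8% and 9.55%, so their order depends on the length used, and the S1pr5 share in oligodendrocytes was 70.1%.

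**Figure D3:**
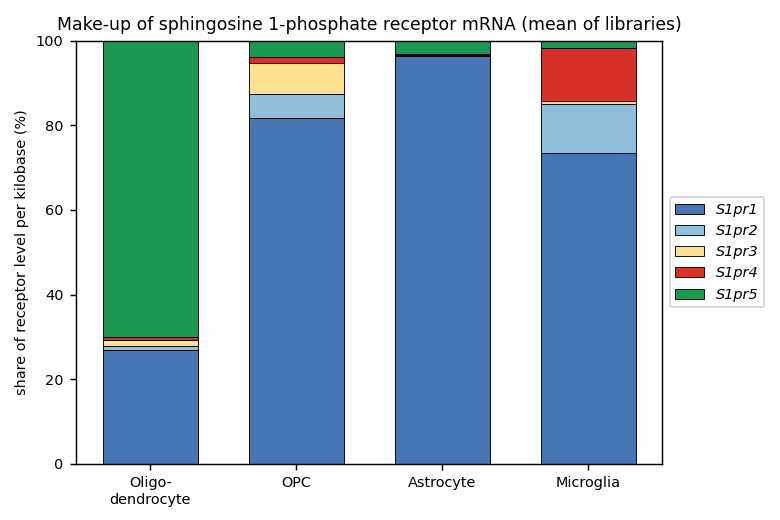
Share (y axis, percent, mean over libraries) of each S1P receptor gene in the summed receptor level per kilobase, by cell type. S1pr1 fills most of the bar in astrocytes (96.5%), OPCs (81.7%) and microglia (73.5%), and S1pr5 in oligodendrocytes (70.0%).

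Of the enzymes, the lyase Sgpl1, which cleaves S1P irreversibly, gave the clearest separation (chromosome 10, 60934421-61011826, minus strand). Microglia ran from 331.8 through 336.2 to 423.4 normalized CPM in the controls and from 314.8 through 330.6 to 412.2 in the Rag2-/- libraries. The highest library of any other cell type was an OPC library at 108.2, OPCs starting at 56.9, with astrocytes at 15.5 to 46.4 and oligodendrocytes at 21.1 to 78.4. Microglia had 4.56 times the mean of OPCs, with OPCs lower by a log2 fold change of -2.20 (SE 0.18, edgeR adjusted p = 1.5e-14). Oligodendrocytes were below OPCs by -0.96 (SE 0.19, edgeR adjusted p = 9.32e-05) and did not differ from astrocytes at the threshold (0.23, SE 0.19, edgeR adjusted p = 0.32). The genes most like Sgpl1 were Ier5 and Rab20 (r = 0.972 and 0.971).

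The kinases were also highest in microglia. Sphk1 (chromosome 11, 116421751-116427501, plus strand) ran from 7.69 through 12.6 to 24.2 normalized CPM there, from 1.14 through 1.71 to 3.96 in OPCs and from 0 through 0.242 to 1.34 in astrocytes. Oligodendrocytes held 2.86, 1.29, 0.758 and 0 in the controls of pairs 1, 3, 5 and 6 and 7.83, 2.68, 0 and 0.14 in the Rag2-/- libraries, so that the highest oligodendrocyte library reached just above the lowest of microglia. OPCs were below microglia by -2.76 (SE 0.51, edgeR adjusted p = 9.12e-06). Oligodendrocytes did not differ from OPCs at the threshold (-0.24, SE 0.57, edgeR adjusted p = 0.77). They were above astrocytes by 2.29 (SE 0.62, edgeR adjusted p = 0.00218), which 3 of 16 alternatives no longer called, among them the fit without pair 1 (1.34, edgeR adjusted p = 0.12). Sphk1 was most like Ggt5 (r = 0.927) and the ETS factor Elf1 (r = 0.926).

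Sphk2, the kinase found in the nucleus as well as the cytoplasm (chromosome 7, 45358891-45367426, minus strand), ran from 30.2 through 34.6 to 53.1 normalized CPM in microglia and from 3.08 to 32.6 in the other 31 libraries. Astrocytes were lower than microglia by -1.31 (SE 0.20, edgeR adjusted p = 2.34e-07), while astrocytes, oligodendrocytes and OPCs did not differ at the threshold (oligodendrocytes against astrocytes -0.13, SE 0.22, and against OPCs 0.07, SE 0.23, edgeR adjusted p = 0.65 and 0.82). Exons of Dbp and Rpl18 on the opposite strand cover 38.1% of its exonic bases, and the strand setting of the counting is not given in the sources used here, so its counts are uncertain. Per kilobase Sphk1 made up 32.1% ± 7.86 of the kinase sum in microglia, 17.2% ± 4.91 in OPCs, 13% ± 14.2 in oligodendrocytes and 3.28% ± 3.85 in astrocytes. The genes most similar to Sphk2 were Tpm4 (r = 0.873) and Gm7809 (r = 0.868).

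The exporter Spns2, which releases S1P from endothelial and other cells, was highest in oligodendrocytes (chromosome 11, 72342463-72380840, minus strand). The control libraries of pairs 1, 3, 5 and 6 held 64.7, 50.1, 22.4 and 25.6 normalized CPM and the Rag2-/- libraries 34.8, 70.8, 18.2 and 60.7. OPCs ran from 7.50 through 13 to 19.3, microglia from 5.5 through 11.8 to 18.3 and astrocytes from 2.75 through 10.5 to 20.8. Oligodendrocytes were above OPCs by 1.67 (SE 0.28, edgeR adjusted p = 7.01e-06), in all 16 alternatives. The other cell types overlapped, and neither OPCs and microglia (0.20, SE 0.26, edgeR adjusted p = 0.49) nor astrocytes and microglia (-0.22, SE 0.26, edgeR adjusted p = 0.45) differed at the threshold. Phldb1 and Rnf220 were most like it, with r = 0.824 and 0.809.

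Mfsd2b, the S1P exporter of red cells and platelets, was low in all libraries (chromosome 12, 4912440-4924367, minus strand), with 0 to 164 counts and a highest value of 10.0 normalized CPM in the control OPC library of pair 1. The order of its means, OPC, astrocyte, oligodendrocyte and microglia, had no step between neighbours past the threshold (edgeR adjusted p = 0.72, 0.43 and 0.27 for the pairs of OPC and astrocyte, oligodendrocyte and astrocyte, and oligodendrocyte and microglia). Exons of Wdcp on the opposite strand cover 29.0% of its exonic bases, so these counts too are uncertain. No gene followed it closely (r = 0.591 for Sp5 and 0.584 for Mettl5os).

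Between pairs of cell types, 5 to 9 of the 10 genes were called, read against the shares of all 21368 genes tested, given in all and then for each direction in the same order. Oligodendrocytes and OPCs differed in 6 (2 higher and 4 lower in oligodendrocytes), against 40.7% of all genes (15.7% and 25%). Oligodendrocytes and astrocytes differed in 5 (4 higher, 1 lower), against 49.7% (25.7% and 24%), and oligodendrocytes and microglia in 8 (3 higher, 5 lower), against 68.0% (33.2% and 34.8%). OPCs and astrocytes differed in 6 (4 higher, 2 lower in OPCs), against 42.6% (25.4% and 17.1%), OPCs and microglia in 8 (4 and 4), against 69.5% (38.7% and 30.8%), and astrocytes and microglia in 9 (4 higher and 5 lower in astrocytes), against 70.0% (36.5% and 33.5%). S1pr4, whose OPC values chose the set, is in the count of OPCs against microglia, which is 7 of 9 genes without it. Its call there includes the OPC values that chose the set, so nothing is read from it, and it was lost in Rag2-/- libraries alone. Against microglia, astrocytes and oligodendrocytes were also called lower in S1pr4, a gene that only microglia brought past the filter. In oligodendrocytes against astrocytes its call rests on 1 library, and it was gone without pair 3 (edgeR adjusted p = 1).

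Comparing Rag2-/- mice with controls asks whether glia that developed without mature lymphocytes carry other levels of these genes. None of the members past the filter was called for genotype in any cell type, 6 in oligodendrocytes (where 0% of 13802 genes were called), 9 in OPCs (0.00592% of 16882), 8 in astrocytes (0.00679% of 14725) and 7 in microglia (0.00667% of 15003). At an unadjusted p under 0.05 there were 0, 1, 0 and 1 members. Of all genes, 467 were under it in oligodendrocytes, 679 in OPCs and 423 in astrocytes, and the 1 microglia member ranked 90 of 15003. DESeq2 on the genes past the filter called none of the members either. No member had groups that did not overlap, in a background of 0.122% of genes for astrocytes, 0.133% for microglia, 0.403% for OPCs and 2.31% for oligodendrocytes.

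In OPCs S1pr1 had the smallest p, and 4 of its 5 Rag2-/- libraries lay at or above 110.0 against a control median of 71.8. The control mean was 79.7 ± 30.0 (SD, n = 6) and the Rag2-/- mean 132.7 ± 56.0 (SD, n = 5), a log2 fold change of 0.72 (SE 0.30) with an edgeR adjusted p of 1.00. Its unadjusted edgeR p was 0.0285. Without the filter on low counts the same value was called (0.72, edgeR adjusted p = 0.000228), while DESeq2 on all genes gave an adjusted p of 0.91. The direction held in all 20 alternatives, from 0.43 without the Rag2-/- library of pair 1 to 0.97 without the control of pair 2.

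Astrocyte markers moved with S1pr1 in these libraries. The 8 markers summed to 2083 to 3089 normalized CPM in the 6 controls and to 5841 (pair 1), 4066 (pair 2), 2448 (pair 3), 4022 (pair 4) and 3136 (pair 6) in the Rag2-/- libraries. The 3 libraries with the highest sums were also the 3 with the most S1pr1, and the control of pair 5 was lowest in both. Their part in the S1pr1 difference was not tested. Endothelial markers, of cells that also carry S1PR1, summed to 26.9 to 61.0 in the controls and to 33.4 to 99.2 in the Rag2-/- libraries.

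**Figure D4:**
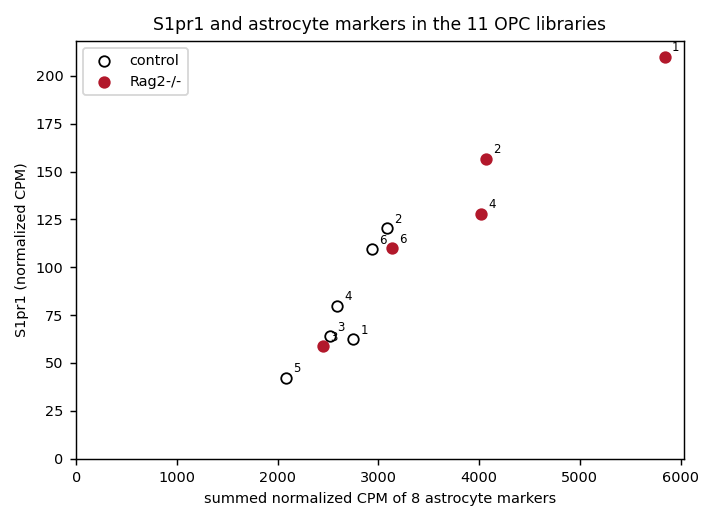
S1pr1 (y axis, normalized CPM) against the summed normalized CPM of 8 astrocyte markers (x axis) in the 11 OPC libraries, open circles for control and filled circles for Rag2-/- mice, each with its pair number. The Rag2-/- libraries of pairs 1, 2 and 4 are highest on both axes, and the control of pair 5 is lowest on both.

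S1pr2 in microglia had the smallest unadjusted p of all members. The controls of pairs 1 to 6 held 10.7, 11, 8.60, 8.76, 13.1 and 8.94 normalized CPM and the Rag2-/- libraries 11.9, 14.6, 16.3, 16.2, 12.0 and 14.4. Only the control of pair 5, at 13.1, lay inside the range of the Rag2-/- libraries. The means were 10.2 ± 1.77 and 14.2 ± 1.93 (SD, n = 6 each), a log2 fold change of 0.47 (SE 0.18, edgeR adjusted p = 1.00), and none of 21 alternatives called it (edgeR or DESeq2 adjusted p from 0.84). Its unadjusted edgeR p was 0.0135. Spns2 in microglia had the next smallest p, with 10.2 ± 2.67 in controls and 13.2 ± 3.70 in Rag2-/- mice (0.28, SE 0.21, edgeR adjusted p = 1.00).

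The other named differences by genotype did not pass the threshold. In OPCs Sphk1 had a log2 fold change of 0.58 (SE 0.46). In oligodendrocytes Sphk2 stood at -0.91 (SE 0.61) and S1pr1 at -0.68 (SE 0.55), and both were close to 0 without 1 library (-0.07 and -0.03). In astrocytes Spns2 stood at 0.68 (SE 0.34) and was higher in the Rag2-/- library of all 6 littermate pairs. With the pair as a block its log2 fold change was 0.33, and 0.62 without the sex term, both with an edgeR adjusted p of 1.00. S1pr3 in astrocytes stood at 1.25 (SE 0.73) and turned to -0.42 without the Rag2-/- library of pair 1. The edgeR adjusted p of these 5 was 1.00.

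**Figure D5:**
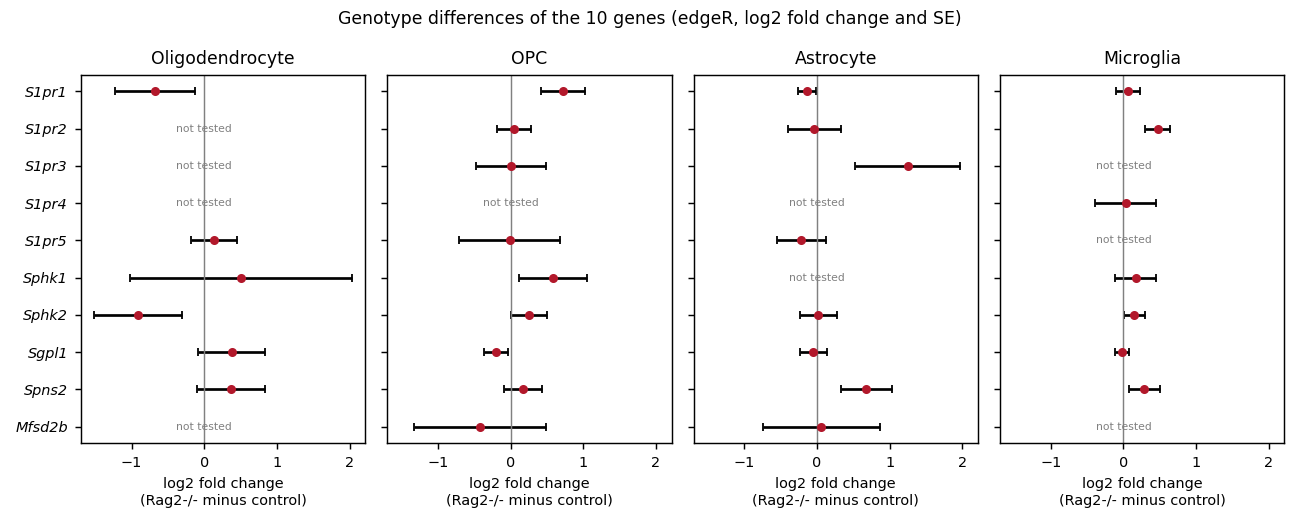
Log2 fold change between Rag2-/- and control libraries (x axis, points, with bars of 1 SE from the edgeR fit) of each gene (rows) in the 4 cell types. Genes that the filter on low counts took out are marked as not tested, and none of the points passed the threshold.

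For sex, also none of the members was called, where edgeR called 0.0467% of genes for microglia, 0.0407% for astrocytes, 0.0296% for OPCs and 0.0362% for oligodendrocytes. At an unadjusted p under 0.05 it gave 2, 3, 0 and 0 members in the same order, and DESeq2 called none. Of all genes, 991 of 14725 were under it for astrocytes, 726 of 16882 for OPCs and 1136 of 13802 for oligodendrocytes. The 2 microglia members ranked 377 and 478 of 15003. In astrocytes Spns2 was lower in females by a log2 fold change of -0.95 (SE 0.36, edgeR adjusted p = 0.72) and S1pr5 by -0.81 (SE 0.35, edgeR adjusted p = 0.72), the latter called without the filter on low counts (edgeR adjusted p = 0.0202). Oligodendrocyte markers summed to 3750 to 6422 in the 5 female and 3725 to 6491 in the 7 male astrocyte libraries. In microglia S1pr4 was 0.96 higher in females (SE 0.42) and Spns2 0.46 (SE 0.21), both with an edgeR adjusted p of 1.00. NK cell markers, of cells known to carry S1PR5, moved with sex in the same libraries. The 7 genes summed to 4.64 to 7.80 normalized CPM in the 5 female and 0.972 to 4.94 in the 7 male libraries, with Gzma, a granzyme, at 1.18 to 3.45 and 0 to 1.26. Klrd1 was read in all 12 libraries, while Ncr1 was at 0 counts in 1 female and 5 male libraries. Mean sums of B cell (12.9 and 11.6), neutrophil (32.9 and 20.5), erythroid (122.8 and 63.7) and platelet markers (118.2 and 109.4) were also higher in females. Those of T cell (27.6 and 31.7) and dendritic cell markers (568.5 and 570.6) were lower, and the sexes overlapped in each list. By median, erythroid sums were lower in females (30.5 and 67.0), neutrophil sums close (20.5 and 20.3) and dendritic cell sums higher in females (586.2 and 565.3). Female maxima were 344.6 for erythroid and 93.0 for neutrophil markers. S1pr5 itself ran from 0 to 1.23 in female and from 0 to 2.56 in male microglia. The part of such cells in the S1pr4 difference was not tested. In OPCs Sphk2 differed by -0.41 (SE 0.26) and S1pr5 by 1.07 (SE 0.71), and in oligodendrocytes Sphk1 by -3.00 (SE 1.67) and Sgpl1 by -0.64 (SE 0.49), with adjusted p of 1.00, 1.00, 0.68 and 0.77 in edgeR.

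Whether the genotype effect differed between cell types was tested for the members other than S1pr4 as the effect in 1 cell type minus the mean of the other 3. None of these 9 was called in any cell type, with 2.54% of all genes called for oligodendrocytes, 0.00468% for OPCs, 0% for astrocytes and 0.00936% for microglia. At an unadjusted p under 0.05 edgeR gave 2, 1, 0 and 0 members, and DESeq2 called none of them. For oligodendrocytes these were Sphk2 and S1pr1, whose p ranked 1725 and 3163 of 21368 genes, and for OPCs S1pr1, which ranked 204.

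Further genes of the S1P pathway were described from a list of 16, of which 15 passed the filter (Acer1 did not). They include phosphatases that return S1P to sphingosine, ceramidases that supply it and the carrier Apom, and also Klf2, Cd69 and Grk2, which lie outside S1P metabolism. Of the 15, 9 had their highest mean level in microglia, Klf2, Cd69 and Grk2 among them, 3 in oligodendrocytes, 2 in astrocytes and 1 in OPCs. The same split over all genes was not computed. Astrocytes and oligodendrocytes had the highest mean receptor sums per kilobase with TMM factors, though the sums of OPCs overlapped those of oligodendrocytes. Between oligodendrocytes and astrocytes 5 were higher and 5 lower in oligodendrocytes (25.7% and 24% of all genes), with a median log2 fold change of -0.25 against -0.01 over all genes. The largest differences were those of Plpp3, a surface lipid phosphatase (65.3 normalized CPM in oligodendrocytes and 897 in astrocytes, log2 fold change -3.82, SE 0.21, edgeR adjusted p = 8.17e-19), Apom (0 and 0.119, not called, edgeR adjusted p = 0.0586) and Plpp1 (0.99 and 3.89, -2.01, SE 0.51, edgeR adjusted p = 0.00116).

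All 7 genes of the G protein alpha subunits through which the receptors signal passed the filter, and 3 were highest in oligodendrocytes, 3 in microglia and 1 in OPCs. Between oligodendrocytes and astrocytes Gnai1 was higher (281 and 85.0 normalized CPM, log2 fold change 1.73, SE 0.20, edgeR adjusted p = 2.27e-09), as was Gna12 (119 and 68.6, 0.77, SE 0.15, edgeR adjusted p = 2.3e-05), and Gna13 was lower (114 and 339, -1.58, SE 0.11, edgeR adjusted p = 6.78e-16). Of the receptors for lysophosphatidic acid, 5 of 6 passed the filter, all but Lpar3. Lpar1 was highest in oligodendrocytes (214 normalized CPM, against 35.2 in astrocytes, log2 fold change 2.60, SE 0.29, edgeR adjusted p = 6.55e-10). Lpar4 was lower there (0.212 and 3.57, -3.93, SE 0.73, edgeR adjusted p = 2.59e-05), and Lpar5 (0.102 and 0.395, -1.47, SE 0.91) was not called.

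None of the genes of these 3 lists was called for genotype or sex in the fits of single cell types. In the comparison of genotype effects between cell types Lpar2 was called for oligodendrocytes (edgeR adjusted p = 0.0442), on 47 counts in the control library of pair 3 and 0 in the other 7 oligodendrocyte libraries, so no fold is given. In limma's voom with a weight per cell type, an alternative chosen after seeing the data that changes both the tool and the weights, 0 of all genes were called there instead of 542, and 1034 had an unadjusted p under 0.05.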

How the data were processed

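RNA of 43 immunopanned libraries was amplified, sequenced as read pairs, aligned by the authors with STAR 2.7.8a to GRCm39 (Ensembl release 104) and counted per gene with HTSeq. The deposited values are these raw counts, with no normalization. Amplification precedes counting, so low counts vary by more than counting error, and the strand setting is not given in the sources used here. Read pairs counted on no gene (33.5% to 52.0% per library) were left out of library sizes. Gene names and places came from GENCODE M39, which named 54749 of 55416 identifiers.

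Counts were tested with edgeR 4.0.16 in R 4.3.3 (glmQLFit and glmQLFTest, two-sided, TMM factors, filterByExpr with a minimum count of 10 and total of 15, Benjamini-Hochberg over all genes past the filter), per cell type with sex and genotype as terms, and jointly over 8 groups with sex. Sex differences are female minus male, and genotype differences Rag2-/- minus control. The edgeR genotype tests and the comparison of microglia with OPCs were tried on simulated data first. The other comparisons of cell types, the sex tests, the differences of genotype effects and the other tools were not. Likeness is Pearson's r of log2(normalized CPM + 1). DESeq2 1.42.0 and limma 3.58.1 gave alternatives, with other filters, scalings, blocks, control groups and left-out libraries. All 10 members were named, with fold changes between neighbours in the order of levels, every called member and the 2 smallest p-values for genotype and sex, 2 most similar genes each, and of each list its called genes or the 3 largest differences. Of genes with over 90% of an OPC level in the same library as S1pr4, the 5 with the most counts were named. The members, lists and rules were chosen with earlier results of these data known.

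Pair numbers mark littermates. Littermate libraries deviated together: the mean correlation over genes was 0.0787 for oligodendrocytes, 0.0676 for OPCs, 0.0779 for astrocytes and 0.0546 for microglia, and -0.026, -0.0134, -0.015 and -0.011 for libraries of different pairs. Libraries of the same mouse in different cell types also deviated together, with a mean correlation of 0.0279, against -0.0055 for different mice. The smallest chi-square between libraries of a group was 7.45 per gene, so no library was taken for a copy of another. That value does not show that libraries are independent. The main fits treat them so, with no term for mouse or pair.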

Additional observations from a re-analysis of the deposited data

Results flagged for a closer look

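Of 76 groups of 4 to 6 libraries tested, 12 held a library whose gap to the nearest other value was a larger part of the group's range than Dixon's 95% limit allows. Chance flags about 1 in 20 groups of normally distributed values. Levels from low counts are not so distributed, so no excess is read from the 12. In 3 of the 12 every other library was at 0, where the gap takes up the whole range by construction. S1pr4 in OPCs chose the set and was left out. Levels are in normalized CPM.

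S1pr4 stood apart in Rag2-/- libraries at 4.98 in the oligodendrocyte library of pair 3 (others 0) and at 0.767 in the astrocyte library of pair 2, on 7 counts (others 0). S1pr3 stood apart at 11.9 in the Rag2-/- oligodendrocyte library of pair 5 (others 0 to 1.82), at 6.74 in the control oligodendrocyte library of pair 6 (others 0) and at 10.3 in the Rag2-/- astrocyte library of pair 1 (others 0.222 to 1.58). S1pr2 did so at 5.62 in the Rag2-/- oligodendrocyte library of pair 3 (others 0 to 0.536) and at 21.5 in the control OPC library of pair 2 (others 11.4 to 14.9).

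S1pr1 was 89.6 in the control oligodendrocyte library of pair 6 (others 26.4 to 32.8). Sphk2 was 32.6 in the control oligodendrocyte library of pair 5 (others 12.8 to 15.9), and Sphk1 was 2.75 in the control OPC library of pair 3 (others 1.14 to 1.71). Mfsd2b was 10.0 in the control OPC library of pair 1 (others 0.321 to 1.88) and 4.37 in the Rag2-/- OPC library of pair 4 (others 0.166 to 1.37).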

How the results depend on the processing

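Of 764 fold changes recomputed under an alternative, 715 kept their direction and side of the threshold, 20 lost a call, 10 gained one and 19 changed sign. The cause was not tested. S1pr4 in OPCs chose the set and is left out of the counts that follow. Without the filter on low counts, 1 member instead of 0 was called for genotype in OPCs (S1pr1) and for sex in astrocytes (S1pr5). The same number was called for the genotype effect of oligodendrocytes or OPCs against the other cell types (S1pr1 in both). For oligodendrocytes that number was also 0 to 1 with a pair left out (S1pr2, without pair 3). In control libraries alone 2 members instead of 5 differed between oligodendrocytes and astrocytes. The share of S1pr4 counts of OPCs in 1 library was 95.4% in raw counts and 91.6% after scaling.

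The sign changes were all of differences near 0 or of genes with few counts in oligodendrocytes, apart from S1pr3 in astrocytes by genotype (1.25, and -0.42 to 1.51 with a library left out). With a pair left out, oligodendrocytes against astrocytes ranged from -3.33 to 1.78 for S1pr3, -0.040 to 5.04 for S1pr4 and -0.23 to 0.40 for Sgpl1. Oligodendrocytes against OPCs ranged from -3.02 to 2.11 for S1pr4, -1.28 to 0.079 for Sphk1 and -0.25 to 0.21 for Sphk2. Oligodendrocytes against microglia ranged from -0.13 to 0.37 for S1pr1, astrocytes against microglia from -0.43 to 0.055 for Spns2 and OPCs against astrocytes from -0.49 to 0.64 for Mfsd2b. In Rag2-/- libraries alone S1pr1 was -0.17 for oligodendrocytes against microglia and Sphk2 -0.50 against OPCs, and in control libraries alone Sphk2 was 0.29 against astrocytes. With a weight per cell type in voom, oligodendrocytes stood at -1.24 against astrocytes for S1pr3, and against OPCs at -0.44 for S1pr4 and -0.057 for Sphk2. The S1pr4 values against OPCs hold the OPC values that chose the set, and nothing is read from them.

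With the mouse as a replicate block, S1pr3 was -0.56 and S1pr2 -1.45 for oligodendrocytes against astrocytes, the latter then called (edgeR adjusted p = 0.0201). S1pr4 lost its call there (3.06, edgeR adjusted p = 0.11). In that setting 100 instead of 542 of all genes were called for the genotype effect of oligodendrocytes against the other cell types. With the littermate pair as a replicate block no member was called for genotype, as without it.

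Over all genes, calls without the filter on low counts rose for genotype from 0 to 14 in oligodendrocytes, from 1 to 90 in OPCs, from 1 to 30 in astrocytes and from 1 to 9 in microglia, and DESeq2 on all genes gave 206 in oligodendrocytes. For sex in oligodendrocytes the number was 5, and 99 without the filter and 146 with DESeq2 on the genes past it. For the genotype effect of oligodendrocytes against other cell types it was 542, 1309 without the filter, 1360 in DESeq2, 0 in voom and 228 to 902 with a pair left out. DESeq2 on the genes past the filter gave 34 instead of 1 for OPCs, 19 instead of 0 for astrocytes and 42 instead of 2 for microglia in that comparison, and for sex 16 instead of 6 in astrocytes and 11 instead of 7 in microglia. With DESeq2's size factors the median of all genes between OPCs and astrocytes moved from 0.14 to 0.04. Without mitochondrial genes in the scaling, 16 of 40 mean levels moved by more than 1 SD and every gene kept its highest cell type. S1pr2, S1pr3, S1pr4, S1pr5, Sphk1 and Mfsd2b have a cell type with libraries at 0 counts, and differences below the floor of 3 counts are not detectable there.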
